A study of Oryza sativa with 12 samples.

Results

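The YABBY and BLADE-ON-PETIOLE (BOP) genes of rice were followed in the pedicels of an easily shattering and a non-shattering cultivar. The members were taken from 2 gene families, by locus identifier, without a rule on their values. They were 7 YABBY genes (DL, YAB1 and YAB3 to YAB7) and 3 BOP genes (BOP1 to BOP3). These are 10 of the 35851 genes with a value. Another YABBY gene, YAB2, was left out, so a YABBY sum below covers these 7 genes and not the whole family. RNA came from W517, which shatters easily, and from DZ129, which has lost shattering. Both are labelled wild type, so the cultivars differ by their whole genetic background and not by 1 allele. In each cultivar the abscission zone (AZ), a short piece of the pedicel below the grain, was compared with the nonabscission zone (NAZ), the rest of the pedicel. The samples were taken at day 10, counted from flowering in the sample labels and from heading in the methods of the study. The 4 groups, W517AZ and W517NAZ beside DZ129AZ and DZ129NAZ, were made up of 3 libraries each, and nothing states whether a replicate was a plant or a pool, so p-values measure the spread between these libraries only.

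YABBY proteins are plant transcription factors that combine a zinc finger with a helix-loop-helix-like YABBY domain. They act in lateral organs such as leaves, glumes and floral organs, and in Arabidopsis several of them mark the abaxial (lower) side. In rice, DL is required for carpel identity and for the midrib of the leaf. YAB1 takes part in the feedback control of gibberellin, YAB3 in leaf development, YAB4 in vascular development and in gibberellin signalling, and YAB5 (TONGARI-BOUSHI1) in the organization of the spikelet. BOP proteins are transcriptional co-regulators with BTB and ankyrin domains. In rice the BOP genes promote the sheath at the base of the leaf, and in Arabidopsis BOP genes are needed for the abscission zones of floral organs.

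Values are FPKM, reads scaled by gene length and by the sequencing depth of the library, so that levels can be compared between genes. The reads behind each FPKM could be recovered, and 17119083 to 20892377 reads per library lay on genes. Across genes, Pearson's r between replicates was 0.989 to 0.991 on the log2 scale. Differential expression was tested with limma on log2(FPKM + 0.1) over the 23951 genes that reached 0.5 FPKM in 3 or more libraries. Genes that changed more than 2-fold with an adjusted p under 0.05 are called differentially expressed (DEGs), and SE is the standard error of a log2 fold change.

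The tissues were first compared with marker genes. Of 11 MADS-box genes of floral organs, 9 were DEGs lower in NAZ in both cultivars, and MADS14 and MADS15, which are also active outside flowers, were not. The summed FPKM of the 11 genes was 1408 to 1488 in the AZ libraries and 413 to 449 in the NAZ libraries. MADS14 and MADS15 made up most of the NAZ sum, with means of 254 and 104 FPKM in DZ129NAZ and 261 and 111 in W517NAZ. Of 8 endosperm genes, all 8 were upregulated in W517AZ vs. DZ129AZ, and their summed FPKM was 20185 to 20229 in W517AZ, 2205 to 2533 in DZ129AZ, 2194 to 2584 in W517NAZ and 539 to 601 in DZ129NAZ. The 4 green tissue genes summed to 928 to 1169 FPKM in the AZ libraries and to 2203 to 2930 in the NAZ libraries. Of 6 regulators known from the rice abscission zone, none was a DEG between the tissues of DZ129 by limma (5 at an unadjusted p below 0.05). These 5 also had an adjusted p below 0.05 with fold changes below 2, 4 lower and 1 higher in NAZ. In W517 2 of the 6 were DEGs, both downregulated in NAZ. SH5 was 1 of these 2, at 23.2 ± 0.307 FPKM in W517AZ and 9.86 ± 0.863 in W517NAZ (SD, n = 3). SH4 was the other, at only 0.941 ± 0.0920 FPKM in W517AZ and 0.174 ± 0.161 in W517NAZ (SD, n = 3). OSH15 went the other way in both cultivars, by less than 2-fold. It was at 74.8 ± 6.27 FPKM in W517AZ and 132 ± 4.32 in W517NAZ, and at 82.7 ± 1.09 in DZ129AZ and 123 ± 0.866 in DZ129NAZ (SD, n = 3). The 6 regulators summed to 150 to 161 FPKM in W517AZ and 172 to 180 in W517NAZ. In DZ129 they summed to 172 to 174 FPKM in AZ and 177 to 183 in NAZ. OSH15 was the largest part of these sums. In W517 the other 5 regulators were lower in NAZ at an adjusted p below 0.05 by limma. The AZ and the NAZ libraries thus both held RNA of floral and endosperm genes beside that of the pedicel, with the higher sums in the AZ of each cultivar. The part of floral and endosperm RNA in the results below was not tested, and in bulk samples fewer cells of a type and less RNA per cell cannot be told apart.

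YAB6 (LOC_Os12g42610, chromosome 12) was by far the most abundant member. It made up 84.3% to 85.9% of the summed FPKM of the 7 YABBY members in the DZ129AZ libraries and 87.3% to 89.0% in W517AZ. Of all genes, 1.22% had a higher mean over the 12 libraries. YAB1 (LOC_Os07g06620, chromosome 7) followed, with 10.3% to 14.4% of the YABBY sum in the AZ libraries. In DZ129AZ the order of the levels was YAB6, YAB1, BOP1, BOP3, DL, BOP2, YAB5, YAB3, YAB4 and YAB7, and of the neighbours in this order only DL and BOP2, and YAB3 and YAB4, overlapped between replicates. In W517AZ the order was the same except that BOP2 stood above DL. There DL overlapped with BOP2 and with YAB5, and YAB3 with YAB4. In both NAZ groups the order began with YAB6, BOP1, YAB1 and BOP3, without overlap among these. The members below BOP3 overlapped with at least 1 neighbour in W517NAZ. There YAB5, and DL in replicate 2, also reached the level of BOP3.

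**Figure D1:**
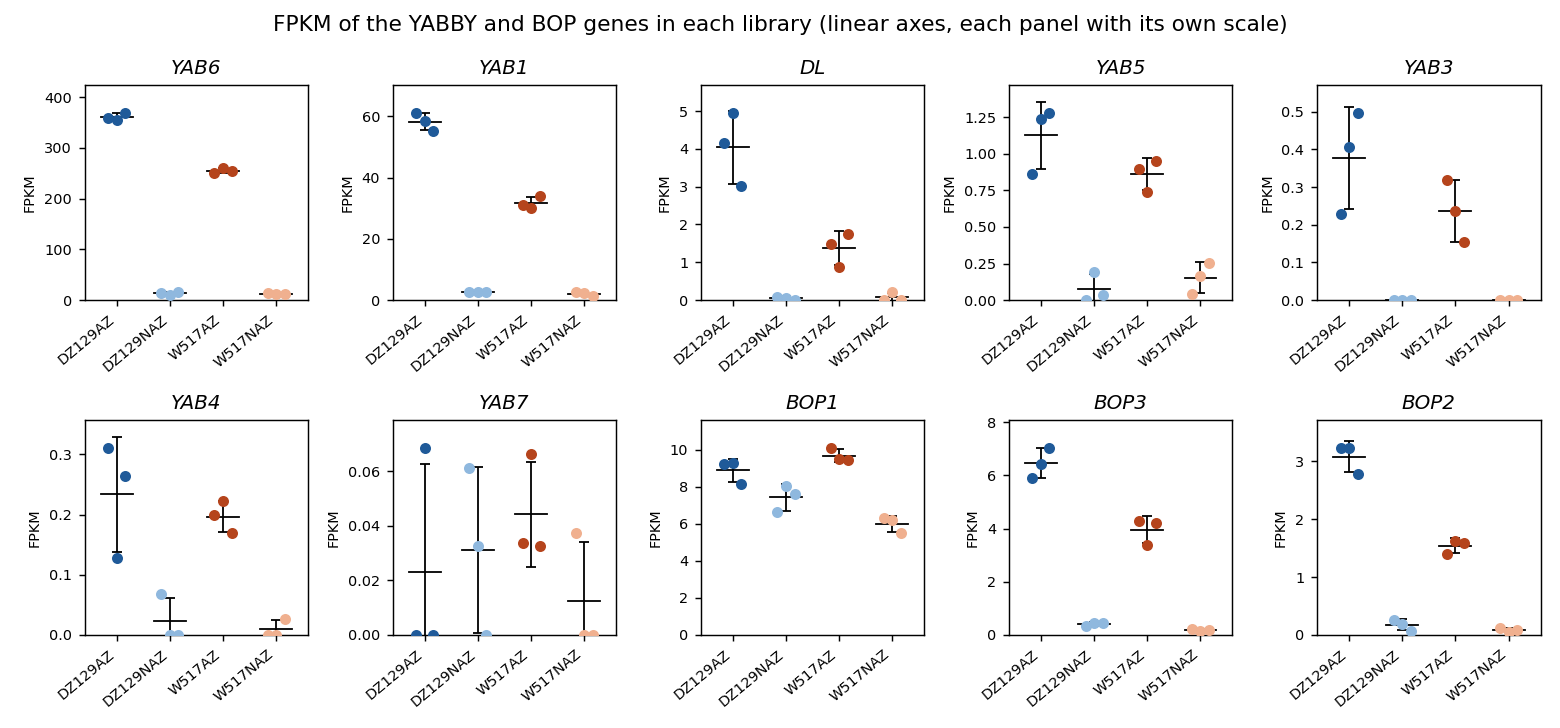
FPKM of the 10 genes in each of the 12 libraries (points), with the mean and SD of the 3 libraries of a group (lines and bars), on linear axes that differ between panels. YAB6 lay at 356 to 369 FPKM in DZ129AZ and at 251 to 261 in W517AZ, and at 10.9 to 15.2 in all NAZ libraries, while the NAZ values of BOP1 came near its AZ values and those of YAB7, at 0 to 2 reads, overlapped with them.

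The comparison of NAZ with AZ asks which of these genes mark the zone where the grain detaches. Nearly the whole group was lower in NAZ than in AZ, and this held in the shattering and in the non-shattering cultivar alike. DL, YAB1, YAB5, YAB6, BOP2 and BOP3 were downregulated DEGs of W517NAZ vs. W517AZ as well as of DZ129NAZ vs. DZ129AZ. BOP1 was lower too, but by less than 2-fold. Of the 10 members, 7 passed the filter on low values, and 6 of the 7 were called in each cultivar. Over all genes tested, 33.7% were DEGs in W517NAZ vs. W517AZ (21.3% downregulated) and 28% in DZ129NAZ vs. DZ129AZ (18.2% downregulated). DL, YAB5, BOP2 and BOP3 passed the filter through the AZ libraries alone, so a difference was required of them and their calls are no separate support. YAB1, YAB6 and BOP1 passed in all 12 libraries. Without the filter, all 10 members could be tested among 35851 genes, and 8 were called downregulated in each cultivar, where 25.8% of all genes were DEGs in W517 (17% downregulated) and 21.6% in DZ129 (14.3% downregulated). The median log2 fold change of the 10 members was then −2.60 in W517 and −3.27 in DZ129, while that of all genes was −0.07 and −0.04.

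YAB6 measured 251, 261 and 255 FPKM in the 3 W517AZ libraries and 13.5, 11.4 and 12.9 in W517NAZ. In DZ129 it measured 358, 356 and 369 FPKM in AZ and 13.2, 10.9 and 15.2 in NAZ. The tissues were far apart in each cultivar, and the spread between replicates was small beside the gap. The level in AZ was 20.3-fold that in NAZ in W517 and 27.6-fold in DZ129. The log2 fold change of NAZ vs. AZ was −4.33 (SE 0.09, limma adjusted p = 1.2e-13) in W517 and −4.79 (SE 0.09, limma adjusted p = 7.0e-14) in DZ129. These were the 30th lowest value of the 23951 genes in W517 and the 64th lowest in DZ129.

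YAB1, a gene of the gibberellin feedback, behaved much like YAB6 at a lower level. It had 31.2, 30.1 and 34.0 FPKM in W517AZ and 2.55, 2.35 and 1.42 in W517NAZ. In DZ129 it had 61.1, 58.6 and 55.3 FPKM in AZ and 2.71, 2.48 and 2.57 in NAZ. No NAZ library came near an AZ library. The ratio of AZ to NAZ was 15.1 in W517 and 22.5 in DZ129, and the log2 fold changes of NAZ vs. AZ were −3.89 (SE 0.15) and −4.44 (SE 0.15), with adjusted p of 4.9e-11 and 1.8e-11 from limma.

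DL (LOC_Os03g11600, chromosome 3), the carpel and midrib gene, was almost unread outside the AZ. It had 4.16, 4.95 and 3.02 FPKM in DZ129AZ, from 84, 94 and 61 reads, and 2, 1 and 0 reads in DZ129NAZ. In W517AZ it had 1.49, 0.867 and 1.75 FPKM, from 29, 17 and 35 reads, and in W517NAZ 0, 4 and 0 reads, so all its W517NAZ reads came from replicate 2. With so few reads in NAZ the size of the ratio is poorly known. From summed reads it was 83.5 in DZ129, with a 95% exact interval of 28.2 to 408, and 18.6 in W517, with an interval of 6.97 to 69.7. These intervals cover counting error only. The limma adjusted p was 2.9e-07 in DZ129 and 1.2e-05 in W517.

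YAB5 (LOC_Os04g45330, chromosome 4), which organizes the spikelet, was low throughout. It had 0.865, 1.24 and 1.28 FPKM in DZ129AZ and 0.899, 0.736 and 0.949 in W517AZ, from 19 to 34 reads per library. In NAZ it had 0 to 5 reads per library in DZ129 and 1 to 6 in W517. The ratio of summed reads was 15.4 (95% exact interval 6.79 to 43.0) in DZ129 and 5.58 (2.93 to 11.7) in W517. The log2 fold changes of NAZ vs. AZ were −2.94 and −2.01, with adjusted p of 1.5e-05 and 3.8e-04 from limma. With a pseudocount of 1 they were −0.98 and −0.69, and the calls were lost for size while the adjusted p stayed at most 3.7e-05.

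The remaining YABBY members were near the limit of reading. YAB3 (LOC_Os10g36420, chromosome 10), a gene of leaf development, had 6, 10 and 13 reads in the DZ129AZ libraries and 8, 6 and 4 in W517AZ, but 0 in all 6 NAZ libraries. Against a floor of 3 reads per library this is at least 3.38-fold higher in AZ in DZ129 and at least 1.84-fold higher in W517. YAB4 (LOC_Os02g42950, chromosome 2), which acts in vascular development, had 13, 5 and 11 reads in DZ129AZ and 8, 9 and 7 in W517AZ, with 3, 0 and 0 reads in DZ129NAZ and 0, 0 and 1 in W517NAZ. Without the filter, both genes were downregulated in NAZ in both cultivars, with limma adjusted p of 7.4e-06 and 5.4e-05 for YAB3 and of 6.0e-04 and 5.1e-04 for YAB4, in DZ129 and W517. YAB7 (LOC_Os07g38410, chromosome 7) had 0 to 2 reads in every library of all 4 groups, and no difference was detectable at this depth.

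The BOP genes divided into BOP1 and a pair that moved strongly. BOP2 (LOC_Os11g04600) and BOP3 (LOC_Os12g04410) lie on chromosomes 11 and 12, in segments of these chromosomes that are known copies of each other, so reads could in part have been assigned to the wrong copy and their values are uncertain to that extent. BOP3 had 5.91, 6.42 and 7.04 FPKM in DZ129AZ and 0.317, 0.429 and 0.444 in DZ129NAZ. In W517 it had 4.28, 3.39 and 4.22 FPKM in AZ and 0.211, 0.134 and 0.169 in NAZ. BOP2 had 3.24, 3.24 and 2.78 FPKM in DZ129AZ and 0.253, 0.196 and 0.0709 in DZ129NAZ. In W517 it had 1.39, 1.63 and 1.60 FPKM in AZ and 0.112, 0.0534 and 0.0811 in NAZ. The AZ libraries lay well above the NAZ libraries for both genes in both cultivars.

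For BOP3 the level in AZ was 23.1-fold that in NAZ in W517 and 16.3-fold in DZ129, and the log2 fold changes of NAZ vs. AZ were −3.91 (SE 0.17, limma adjusted p = 1.7e-10) and −3.73 (SE 0.17, limma adjusted p = 3.6e-10). For BOP2 the folds were 18.7 and 17.8, and the log2 fold changes −3.18 (adjusted p = 7.3e-08) and −3.60 (adjusted p = 2.5e-08), with a standard error of 0.25 in limma. These rest on 2 to 15 reads per NAZ library. The ratio of BOP2 to BOP3 was 0.394 to 0.547 in DZ129AZ, 0.325 to 0.480 in W517AZ and 0.399 to 0.532 in W517NAZ, and it ranged from 0.160 to 0.798 in DZ129NAZ.

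BOP1 (LOC_Os01g72020, chromosome 1) had 9.21, 9.28 and 8.15 FPKM in DZ129AZ and 6.62, 8.06 and 7.61 in DZ129NAZ. In W517 it had 10.1, 9.52 and 9.44 FPKM in AZ and 6.32, 6.20 and 5.51 in NAZ. The tissues did not overlap in either cultivar, but in DZ129 the lowest AZ library and the highest NAZ library were close. The level in AZ was 1.61-fold that in NAZ in W517 (log2 fold change of NAZ vs. AZ −0.68, SE 0.09, limma adjusted p = 9.4e-06) and 1.20-fold in DZ129 (−0.26, SE 0.09, limma adjusted p = 0.019). The difference in DZ129 was not past the test in 6 of 21 alternatives, with −0.14 (limma adjusted p = 0.17) after quantile normalization.

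This left the 2 tissues with a different make-up of BOP transcripts. BOP1 gave 45.4% to 50.2% of the summed BOP FPKM in the DZ129AZ libraries and 61.9% to 65.4% in W517AZ, against 92.1% to 93.7% in DZ129NAZ and 95.1% to 97.1% in W517NAZ. The ranges of the 4 groups did not overlap. The summed BOP FPKM was 18.0 to 18.9 in DZ129AZ, 14.5 to 15.8 in W517AZ, 7.19 to 8.68 in DZ129NAZ and 5.76 to 6.64 in W517NAZ.

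**Figure D2:**
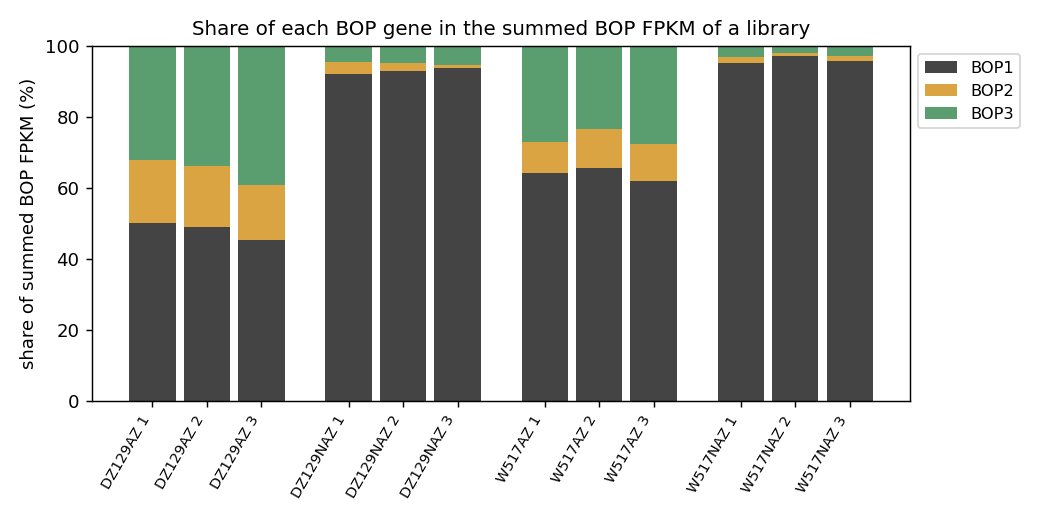
Share of BOP1, BOP2 and BOP3 in the summed BOP FPKM (vertical axis, percent) of each library, in bars grouped by cultivar and tissue. BOP1 filled 92.1% to 97.1% of the NAZ bars and 45.4% to 65.4% of the AZ bars.

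In both cultivars YAB1, YAB6 and BOP3 changed between the tissues by an amount within or next to the range of the floral MADS-box genes. DL and BOP2 did so in DZ129, and YAB5 and BOP1 changed less. The 9 floral genes called in both cultivars had log2 fold changes of NAZ vs. AZ from −4.32 to −3.61 in W517 and from −4.95 to −3.10 in DZ129. MADS1, a gene of lemma and palea identity that is the next named locus to DL, went from 321 ± 5.22 FPKM in W517AZ to 19.6 ± 1.11 in W517NAZ, and in DZ129 from 470 ± 19.3 in AZ to 27.1 ± 4.31 in NAZ (SD, n = 3). Within a library, YAB1 stood at 0.0935 to 0.105 of the level of MADS1 in W517AZ and at 0.0768 to 0.123 in W517NAZ, so the ranges overlapped. In DZ129 the same ratio was 0.121 to 0.127 in AZ and 0.0856 to 0.112 in NAZ. For YAB6 the ratio was 0.784 to 0.809 in W517AZ and 0.585 to 0.696 in W517NAZ, and 0.728 to 0.808 in DZ129AZ and 0.456 to 0.504 in DZ129NAZ, lower in NAZ in both cultivars without overlap. BOP3 overlapped between the tissues of DZ129 in this ratio (0.0120 to 0.0154 in AZ, 0.0109 to 0.0194 in NAZ) and did not in W517 (0.0105 to 0.0136 and 0.00685 to 0.0102). BOP2 overlapped between the tissues of both cultivars. Its ratio was 0.00442 to 0.00506 in W517AZ and 0.00273 to 0.00542 in W517NAZ. In DZ129 the ratio of BOP2 was 0.00608 to 0.00701 in AZ and 0.00236 to 0.00884 in NAZ. BOP1 went from 0.0291 to 0.0321 in W517AZ to 0.297 to 0.317 in W517NAZ. These ratios hold for MADS1 alone, whose level in AZ was 16.4-fold that in NAZ in W517 and 17.4-fold in DZ129. For MADS6 these folds were 20.2 and 21.7, and for MADS7 15.9 and 27.6, so ratios to them would differ. A ratio of this kind shows only that genes changed equally or unequally, and the part of floral tissue in the AZ samples was not tested.

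**Figure D3:**
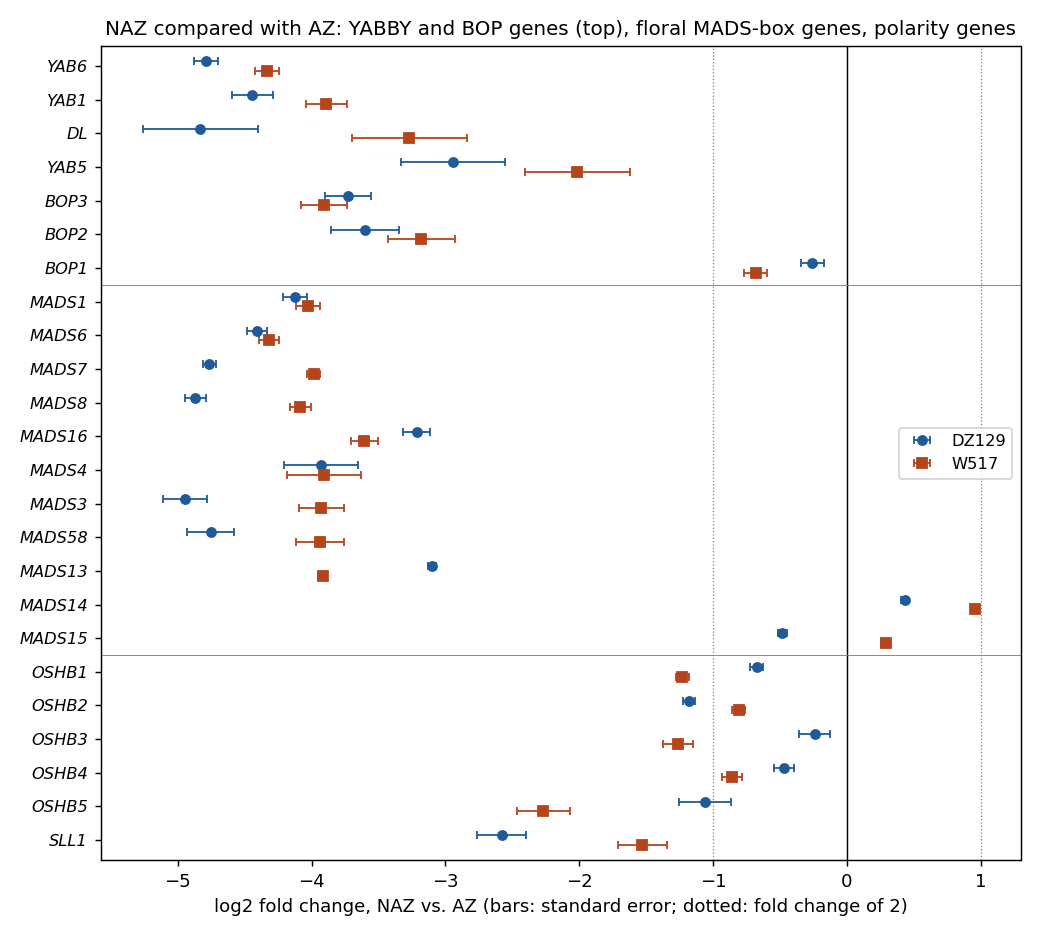
Log2 fold change of NAZ vs. AZ (horizontal axis, with standard errors) in DZ129 (circles) and W517 (squares) for the 7 tested YABBY and BOP genes, 11 floral MADS-box genes and 6 organ polarity genes. YAB6 lay at −4.79 and −4.33, within the range of the 9 floral genes in DZ129 and just below it in W517, and BOP1 at −0.26 and −0.68.

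The comparison of W517 with DZ129 within a tissue asks whether the cultivars differ in these genes. By an adjusted p below 0.05 without the limit on size, 5 of the 7 tested members were lower in W517 in AZ. In NAZ 2 were, BOP1 and BOP3. The share of all genes under this looser rule was not counted, so these counts cannot be set against a background. DL was the only DEG in W517AZ vs. DZ129AZ, so 1 of the 7 tested members was called, while 27.1% of all genes tested were DEGs in this comparison (16.4% downregulated). YAB1, YAB6, BOP2 and BOP3 had adjusted p below 0.05 and fold changes below 2, all lower in W517AZ. The median log2 fold change of the 7 members was −0.70, and that of all genes tested was −0.07. Without the filter, where all 10 members were tested, 1 was called, their median was −0.50 and that of all genes −0.01, and 22.5% of all genes were DEGs (13.3% downregulated).

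DL in W517AZ was 0.339 of its level in DZ129AZ. Its highest W517AZ library, at 1.75 FPKM, lay below its lowest DZ129AZ library, at 3.02 FPKM. The log2 fold change was −1.52 (SE 0.43, limma adjusted p = 0.0067), and over the alternatives it was between −1.71 and −1.09 with an adjusted p of at most 0.035. YAB1 was at 58.3 ± 2.94 FPKM in DZ129AZ and 31.8 ± 2.01 in W517AZ (SD, n = 3), a log2 fold change of −0.87 (SE 0.15, limma adjusted p = 2.0e-04). YAB6 was at 361 ± 6.85 and 255 ± 5.12 FPKM (SD, n = 3), with −0.50 (SE 0.09, limma adjusted p = 2.8e-04). For both, every W517AZ library was below every DZ129AZ library.

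BOP2 was at 3.08 ± 0.267 FPKM in DZ129AZ and 1.54 ± 0.129 in W517AZ (SD, n = 3), close to a fold change of 2, with a log2 fold change of −0.96 (SE 0.25, limma adjusted p = 0.0043). Without replicate 3 of DZ129AZ it was −1.03 and BOP2 became a second DEG. BOP3 was at 6.46 ± 0.566 and 3.96 ± 0.495 FPKM (SD, n = 3), with −0.70 (SE 0.17, limma adjusted p = 0.0030). YAB5 did not pass the test (1.13 ± 0.229 and 0.862 ± 0.111 FPKM, log2 fold change −0.34, limma adjusted p = 0.45), and neither did BOP1, whose W517AZ libraries all lay above those of DZ129AZ (8.88 ± 0.634 and 9.69 ± 0.367 FPKM, 0.13, limma adjusted p = 0.22, n = 3 each). With quantile normalization BOP1 was higher in W517AZ by 0.29 (limma adjusted p = 0.0088). For YAB3 and YAB4 the cultivars overlapped in AZ.

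The floral genes showed no such shift here. None of the 11 was a DEG in W517AZ vs. DZ129AZ by limma (all 11 at an unadjusted p below 0.05), their median log2 fold change was 0.34, and 7 were higher and 3 lower in W517AZ at an adjusted p below 0.05. MADS1 was 1 of the 3 lower ones, at −0.55 (limma adjusted p = 8.8e-05). A ratio to MADS1 therefore does not stand for the 7 higher floral genes, to which no ratio was formed. The AZ of the cultivars overlapped in the ratio to MADS1 for YAB6, YAB5 and BOP3. The ratio was lower in W517AZ without overlap for DL (0.00269 to 0.00539 against 0.00661 to 0.0107), YAB1 (0.0935 to 0.105 against 0.121 to 0.127) and BOP2 (0.00442 to 0.00506 against 0.00608 to 0.00701), and higher for BOP1 (0.0291 to 0.0321 against 0.0179 to 0.0201). The endosperm genes, with a median log2 fold change of 3.13, moved the opposite way to the members.

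In W517NAZ vs. DZ129NAZ none of the 7 tested members was a DEG by limma. At an unadjusted p below 0.05 there were 2, BOP1 and BOP3, which also had adjusted p below 0.05, and with voom on the recovered reads 1 was called, BOP3. Over all genes tested 27.7% were DEGs. The median log2 fold change of the 7 members was −0.30, and that of all genes −0.07. BOP1 was at 7.43 ± 0.734 FPKM in DZ129NAZ and 6.01 ± 0.437 in W517NAZ (SD, n = 3), a log2 fold change of −0.30 (limma adjusted p = 0.0078). BOP3 was at 0.397 ± 0.0692 and 0.171 ± 0.0387 FPKM (SD, n = 3), with −0.87 (limma adjusted p = 5.5e-04), from 11 to 15 and 4 to 6 reads per library. YAB6, at 13.1 ± 2.15 and 12.6 ± 1.04 FPKM (SD, n = 3), had a log2 fold change of −0.04 with a standard error of 0.09 (limma adjusted p = 0.67), and its cultivars overlapped. With quantile normalization the difference of BOP1 shrank to −0.02 and that of BOP3 to −0.23, neither past the test.

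**Figure D4:**
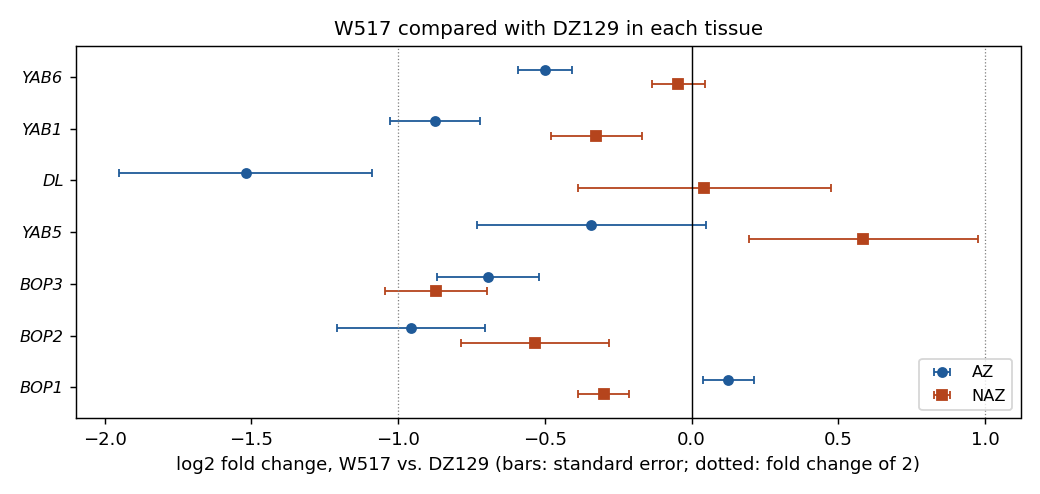
Log2 fold change of W517 vs. DZ129 (horizontal axis, with standard errors) in AZ (circles) and NAZ (squares) for the 7 tested members. DL in AZ, at −1.52, is the only value beyond the dotted lines of a 2-fold change, and YAB5 in NAZ, at 0.59, rests on at most 6 reads per library.

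Whether the tissue change itself differed between the cultivars was tested by the interaction of tissue and cultivar in limma, where an adjusted p under 0.05 was a call whatever the size. Of the 7 tested members 2 were called, YAB6 and BOP1, while 43.4% of all genes tested were called (22% with a positive and 21.4% with a negative difference). YAB6 fell by less in W517NAZ than in DZ129NAZ, with a difference of 0.45 on the log2 scale (SE 0.13, limma adjusted p = 0.012). Its NAZ levels overlapped between the cultivars, and its AZ levels did not. BOP1 differed in the opposite direction, by −0.43 (SE 0.12, limma adjusted p = 0.014), and was lower in W517NAZ than in any other group. With quantile normalization the value of BOP1 was −0.31 (limma adjusted p = 0.056). For DL the difference was 1.56 (SE 0.61, adjusted p = 0.054) and for YAB1 0.55 (SE 0.22, limma adjusted p = 0.057), neither past the threshold. DL was called in 5 of 20 alternatives and YAB1 in 6 of 20. Without replicate 3 of W517NAZ they were 1.84 (limma adjusted p = 0.033) and 0.80 (limma adjusted p = 4.9e-05). Of the floral genes 8 of 11 were called in the same test, 6 with a positive and 2 with a negative difference.

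Other genes of organ polarity and blade formation were also lower in NAZ in part. Of 9 genes listed, 6 had a value and were tested, namely 5 class III homeodomain-leucine zipper genes (OSHB1 to OSHB5), which act on the adaxial (upper) side of organs, and the KANADI gene SLL1, which acts on the abaxial side. In W517NAZ vs. W517AZ 4 of the 6 were downregulated DEGs and in DZ129NAZ vs. DZ129AZ 3 were, with medians of −1.25 and −0.87. SLL1 went from 3.98 ± 0.421 FPKM in DZ129AZ to 0.584 ± 0.0991 in DZ129NAZ, and in W517 from 1.88 ± 0.272 in AZ to 0.590 ± 0.124 in NAZ (SD, n = 3). Its log2 fold change of NAZ vs. AZ was −2.58 in DZ129 (limma adjusted p = 2.8e-08) and −1.53 in W517 (limma adjusted p = 4.8e-06). In AZ it was lower in W517 by a log2 fold change of −1.04 (limma adjusted p = 2.0e-04), which dropped to −0.79 with a pseudocount of 1 and then was no DEG. OSHB1 was at 20.3 ± 0.258 FPKM in DZ129AZ and 21.8 ± 0.816 in W517AZ (SD, n = 3), and its log2 fold change of 0.10 did not pass the test (limma adjusted p = 0.071).

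A further 7 genes were chosen as partners or neighbours of the members. In both tissue comparisons 5 of the 7 were downregulated DEGs in NAZ, namely MADS1, MADS3, MADS16, MADS58 and the gibberellin synthesis gene GA3ox2. The other two were LG1, a gene of the leaf ligule, and the DELLA gene SLR1, a repressor of gibberellin response. GA3ox2 had the greatest difference between the cultivars in AZ of the 7, from 8.12 ± 0.823 FPKM in DZ129AZ to 56.9 ± 0.859 in W517AZ (SD, n = 3; log2 fold change 2.80, SE 0.15, limma adjusted p = 1.7e-09), and was at 3.52 ± 0.783 and 0.485 ± 0.107 FPKM in the NAZ of W517 and DZ129. MADS3, MADS16 and MADS58 were also higher in W517AZ, by less than 2-fold. SLR1 and MADS1 went the other way in AZ, as did DL, YAB1, YAB6, BOP2 and BOP3 among the members. SLR1 was at 58.0 ± 1.14 FPKM in DZ129AZ against 32.2 ± 0.996 in W517AZ (SD, n = 3), a log2 fold change of −0.84 (limma adjusted p = 1.3e-08).

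The genes whose levels most resembled those of DL over the 12 libraries were LOC_Os04g52310 (Pearson's r = 0.985 on the log2 scale), LOC_Os09g23200, which is SLL1 (0.983), and LOC_Os09g15480 (0.982). LOC_Os09g15480 had 14.1 ± 0.199 FPKM in DZ129AZ, 6.56 ± 0.686 in W517AZ, 0.370 ± 0.0999 in DZ129NAZ and 0.490 ± 0.281 in W517NAZ (SD, n = 3). For BOP1, the BOP gene with the highest mean, they were LOC_Os06g10880 (0.980), LOC_Os12g35440 (0.969) and LOC_Os06g02040 (0.964). LOC_Os06g10880 had 4.83 ± 0.203 FPKM in DZ129AZ, 5.25 ± 0.183 in W517AZ, 3.83 ± 0.482 in DZ129NAZ and 3.16 ± 0.440 in W517NAZ (SD, n = 3). The libraries share 2 tissues and 2 cultivars, so these values describe a shared order of the 4 groups.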

How the data were processed

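RNA-seq of 12 libraries in 4 groups was analysed. According to the methods of the study, stranded mRNA reads were trimmed with Trimmomatic, mapped to MSU-RGAP 7.0 with HISAT2 and counted with HTSeq. The methods name Cufflinks as the source of the FPKM, and the authors deposited FPKM for 35851 genes. Since this unit does not suit a count model, limma 3.58.1 (limma-trend, R 4.3.3) was run on log2(FPKM + 0.1) in 1 model of the 4 groups. Adjustment was by Benjamini-Hochberg over the 23951 genes that reached 0.5 FPKM in 3 or more libraries. The pseudocount makes the fold changes of low genes too small. Whole reads were recovered for all genes from the FPKM steps, with lengths of 150 to 20000 bp allowed. Their sums differed from the library totals by at most 0.0046%. Reads were used for depth, for exact intervals on summed reads, for the floor of 3 reads and for an added voom test.

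The members are named families with no rule on values, but these families and the lists were chosen with earlier results of these data known. The genes named are the members, the listed genes and the 3 tested genes most alike in Pearson's r to DL and to the BOP gene with the highest mean. The deposited table gives locus identifiers only, so symbols and roles of listed genes are from general knowledge of rice. For 3 listed polarity genes no value was used here. Alternatives were other pseudocounts, filters and scalings, a replicate block, models of 6 libraries and leaving out each library. The procedure was tested on simulated data. Python 3.11.15 was used for the other steps.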

Additional observations from a re-analysis of the deposited data

Results flagged for a closer look

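YAB6 and BOP1 were singled out because the cultivars differed in how far these genes changed from AZ to NAZ, by limma's test of that difference. The difference, W517 less DZ129, was 0.45 on the log2 scale for YAB6 and −0.43 for BOP1. YAB6 kept this call in every alternative run, with values from 0.33 to 0.57, and BOP1 lost it with quantile normalization. Over all genes tested 43.4% had such a call, so that 2 of 7 tested members is no more than the background.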

How the results depend on the processing

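With each library left out in turn, 6 members were called between the tissues of each cultivar, of which DL, YAB5, BOP2 and BOP3 had passed the filter through AZ alone. No alternative changed these counts by more than 1.5 times. Leaving out a library gave 1 to 2 members called in W517AZ vs. DZ129AZ, 0 to 1 in W517NAZ vs. DZ129NAZ (YAB5, at 1.02, without replicate 2 of DZ129NAZ) and 2 to 4 in the interaction (4 without replicate 3 of W517NAZ, where DL and YAB1 were added). In W517NAZ vs. DZ129NAZ 1 member was called with quantile normalization (YAB5, at 1.28) and 1 with voom on the recovered reads, which was chosen after seeing the data (BOP3, at −1.13). The interaction had 5 of 7 members called with a pseudocount of 0.5 (47.3% of all genes) and 6 with 1 (49% of all genes), where BOP3 turned from −0.18 to 0.34; the cause was not tested. With a pseudocount of 1 the DEGs over all genes fell from 6480 to 4214 in W517AZ vs. DZ129AZ, from 6635 to 4056 in W517NAZ vs. DZ129NAZ and from 6712 to 4385 in DZ129NAZ vs. DZ129AZ. Quantile normalization moved the all-gene median (log2) by 0.12 to 0.19 in the 4 comparisons and median-ratio scaling by up to 0.11. The share of upregulated DEGs was 39.3%, 36.2%, 36.9% and 35.1% (in the order W517AZ vs. DZ129AZ, W517NAZ vs. DZ129NAZ, W517NAZ vs. W517AZ and DZ129NAZ vs. DZ129AZ) and 51.8%, 52.2%, 50.8% and 49.5% after quantile normalization. Replicate numbers did not pair the libraries (r of same-numbered deviations between −0.04 and 0.02, in 18 pairs), and with the replicate block the members called were 1, 0, 6, 6 and 2 in the 5 tests, as without it. For YAB3, YAB4 and YAB7, DL in NAZ and YAB5 in NAZ the reads limit what can be seen.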
